A study of Canis lupus familiaris with 12 samples.

Results

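A set of 81 canine Ensembl gene identifiers moved in opposite directions in 2 hemangiosarcoma (HSA) cell lines deprived of glucose, out of 9916 identifiers expressed in both lines and 30951 in the deposited tables. In 50 of them transcript levels at 0 mM glucose were higher in HU-HSA-2 and lower in HU-HSA-3. In the other 31 levels were lower in HU-HSA-2 and higher in HU-HSA-3. HSA arises from the endothelium of blood vessels, and the lines were derived from splenic tumors of 2 dogs, 1 line from each. Cells were kept for 48 h in serum-containing DMEM with either 25 mM glucose or none, and polyA RNA from 3 libraries was sequenced for each of the 4 combinations of line and glucose, 12 libraries in all. Serum and antibiotics were common to all groups, and the labels name no genetic change or drug, so each response is the response of 1 line from 1 dog. With 1 line per dog, differences between the dogs and differences between the lines cannot be told apart.

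The identifiers were chosen on the values that are described here. For each line, D is the log2 ratio of mean TPM + 1 at 0 mM over that at 25 mM, where TPM is the transcript abundance given by RSEM, a level per unit of transcript length. An identifier was kept when its mean TPM reached 2 over the 6 libraries of each line, when D had an absolute value of at least 0.25 in both lines with opposite signs, and when the 0 mM and 25 mM libraries did not overlap in either line. The 19 genes for which the study designed qPCR primers were left aside. Because levels in the response contrasts made the selection, every response value below is a description and is not evidence that the responses of these identifiers differ. The study's methods state that each condition was cultured in triplicate, while the labels do not tie the 3 libraries of a group to separate cultures. The p-values given below measure only the spread between these libraries, of whatever origin.

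Glucose feeds glycolysis, the supply of ribose and serine, and the sugar donors used to glycosylate proteins in the endoplasmic reticulum. When it is withdrawn, cells can slow translation through phosphorylation of eIF2α while translating the transcription factor ATF4, which in turn activates genes of amino acid synthesis and transport, glutathione turnover and apoptosis. How strongly this programme runs at a given time depends on the nutrients that remain, and a comparison after 48 h sees a single point of its course. The deposited tables name genes by CanFam3.1 Ensembl identifiers only, and none of the 30951 could be matched by identifier to the gene table used here, so the 81 are described by their levels and no function is given for them.

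**Figure D1:**
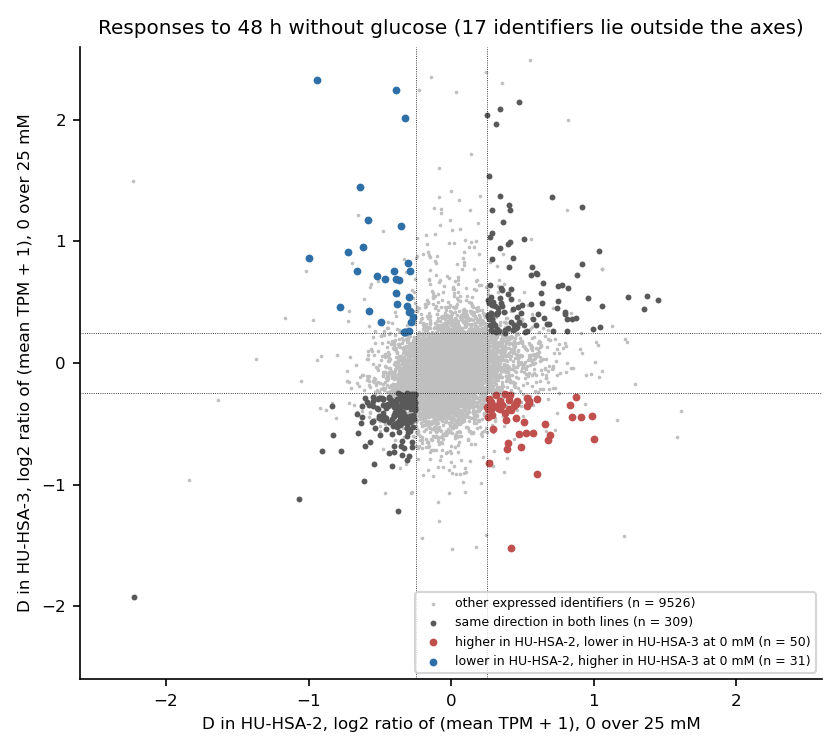
D in HU-HSA-2 (horizontal axis) against D in HU-HSA-3 (vertical axis), both log2 ratios of mean TPM + 1 at 0 mM over 25 mM, for the 9916 expressed identifiers; dotted lines mark 0.25 and -0.25, and 17 identifiers lie beyond the axes. The 50 identifiers in red and the 31 in blue occupy the quadrants of opposite sign, and the 309 dark grey ones met the same criteria with equal signs.

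Opposite movement was the less common outcome among genes that met the size and overlap criteria in both lines. These numbered 392, of which 309 moved in the same direction, 115 being higher and 194 lower at 0 mM. The remaining 83 were the 81 described here and 2 genes with qPCR primers, so 21.2% of the 392 had opposite signs. Another 106 identifiers had large enough D values of opposite sign but overlapping libraries in at least 1 line. Over all expressed identifiers the criteria were met in HU-HSA-2 by 6.33% as higher and by 7.95% as lower at 0 mM. In HU-HSA-3 they were met by 4.62% as higher and by 13.5% as lower, and the 81 amount to 0.817% of the expressed identifiers. Falls outnumbered rises by this rule in HU-HSA-3 (1336 against 458), but with centred libraries 710 fell and 823 rose and on TMM-normalized CPM 830 fell and 899 rose. The smaller excess of falls in HU-HSA-2 (788 against 628) turned likewise, to 612 falls and 792 rises with centred libraries and to 650 and 860 on TMM-normalized CPM. The median D over all expressed identifiers was -0.03 for HU-HSA-2 and -0.08 for HU-HSA-3.

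HU-HSA-3 0 mM library 1 stood apart from the others over all expressed identifiers. Its median deviation from the line's mean over the expressed identifiers was -0.13 on the log2(TPM + 1) scale, whereas the other 11 libraries lay between -0.06 and 0.05. Library totals ranged from 10406166 to 13405159 estimated counts, and this library had the lowest total. Without it, 83 identifiers met the rule, of which 61 were among the 81, and the split turned to 36 higher and 47 lower in HU-HSA-2. When each library was centred on its median expressed identifier, an alternative added after seeing the data, the rule gave 87 identifiers split 46 to 41, and it gave 56 to 42 on TMM-normalized CPM. Centring retained 36 of the 50 and 30 of the 31, and TMM-normalized CPM retained 36 and 27. The larger size of the first set thus narrowed with another scaling and was reversed without this library. It was also reversed with all libraries, to 7 and 8, at an absolute D of at least 0.5. Where edgeR had to call both lines with opposite signs, the split was 21 to 26. Without any other single library the first set stayed larger. The split was then narrowest without HU-HSA-2 0 mM library 2 (48 to 43) and widest without HU-HSA-2 0 mM library 3 (79 to 32).

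The 3 endothelial markers examined had RNA at very different levels. PECAM1 (CD31), an adhesion molecule of endothelial junctions, had group means of 1116 and 1023 TPM in HU-HSA-2 at 25 and 0 mM and of 432 and 379 TPM in HU-HSA-3. KDR, the main receptor for VEGF-A, had group means of 35.8 to 74.3 TPM. VWF, the clotting glycoprotein stored in endothelial granules, lay between 0.05 and 0.66 TPM in all 12 libraries, from 3 to 47 estimated counts. In bulk RNA, fewer cells that express a gene and less RNA per cell cannot be told apart, and markers of other cell types could not be located among the identifiers.

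**Figure D2:**
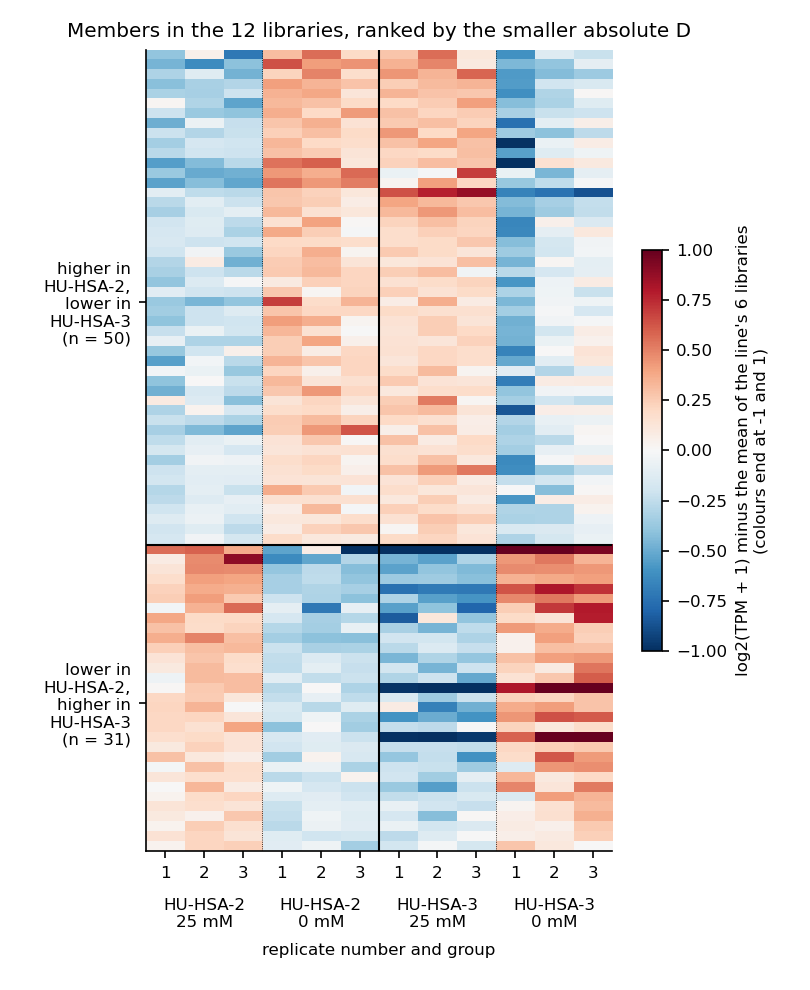
log2(TPM + 1) of each of the 81 identifiers (rows, ranked by the smaller absolute D) in the 12 libraries (columns), minus the mean of the 6 libraries of the same line; colours end at -1 and 1. The 50 upper rows turn from blue to red between 25 and 0 mM in HU-HSA-2 and from red to blue in HU-HSA-3, most deeply in 0 mM library 1, and the 31 lower rows show the reverse.

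Among the 31 identifiers that were lower in HU-HSA-2 and higher in HU-HSA-3 without glucose, the movement was larger in HU-HSA-3. Their median D was -0.39 for HU-HSA-2 and 0.69 for HU-HSA-3. The larger absolute D was in HU-HSA-3 for 24 of 31, against 55.7% of expressed identifiers. The fall in HU-HSA-2 ran from -0.27 to -0.997, and the rise in HU-HSA-3 ran from 0.26 to 2.33. The absolute D exceeded 1 in 6 of them in HU-HSA-3 and in none in HU-HSA-2. The shares over expressed identifiers were 0.87% and 0.41%. A mean of 10 TPM or more in both lines was reached by 19 of the 31, which is 61.3%, against 72.4% of expressed identifiers.

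The widest separation of this kind belonged to ENSCAFG00000017042. Its levels in HU-HSA-2 were 24.0, 24.5 and 20.9 TPM at 25 mM and 10.7, 16.8 and 7.11 TPM at 0 mM. In HU-HSA-3 they were 11.02, 11.17 and 10.04 TPM at 25 mM and 65.6, 59.4 and 49.4 TPM at 0 mM. At 25 mM every HU-HSA-2 library was above every HU-HSA-3 library, and at 0 mM the order of the lines was reversed without overlap. D was -0.94 for HU-HSA-2 and 2.33 for HU-HSA-3. The fitted log2 fold changes on estimated counts were -0.98 ± 0.24 (SE) and 2.57 ± 0.21 (SE). These rest on 31 to 97 estimated counts per HU-HSA-2 library and 31 to 223 per HU-HSA-3 library.

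ENSCAFG00000031691 was the second of this kind and was expressed at low level. In HU-HSA-2 it had 3.94, 5.47 and 7.67 TPM at 25 mM and 2.01, 2.25 and 2.80 TPM at 0 mM. In HU-HSA-3 it had 1.96, 1.82 and 2.30 TPM at 25 mM and 4.52, 4.88 and 4.16 TPM at 0 mM. The glucose groups did not overlap in either line, and the libraries of HU-HSA-2 at 25 mM spread most. D was -0.997 for HU-HSA-2 and 0.87 for HU-HSA-3. Only 9 to 25 estimated counts per library lay behind these levels, and the HU-HSA-2 libraries at 25 mM, in the order given, had 22, 19 and 17 counts. The counts therefore ran against the TPM there, which divides by an effective transcript length estimated in each library. On counts the fitted log2 fold changes were -0.71 ± 0.33 (SE) and 1.04 ± 0.34 (SE), and neither passed the threshold of edgeR's quasi-likelihood test (Benjamini-Hochberg adjusted p of 0.18 and 0.107). On log2(TPM + 1), the scale of the choice, limma called both (adjusted p of 0.0293 and 0.0132). These calls use the values that chose the identifier, so they repeat the choice.

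**Figure D3:**
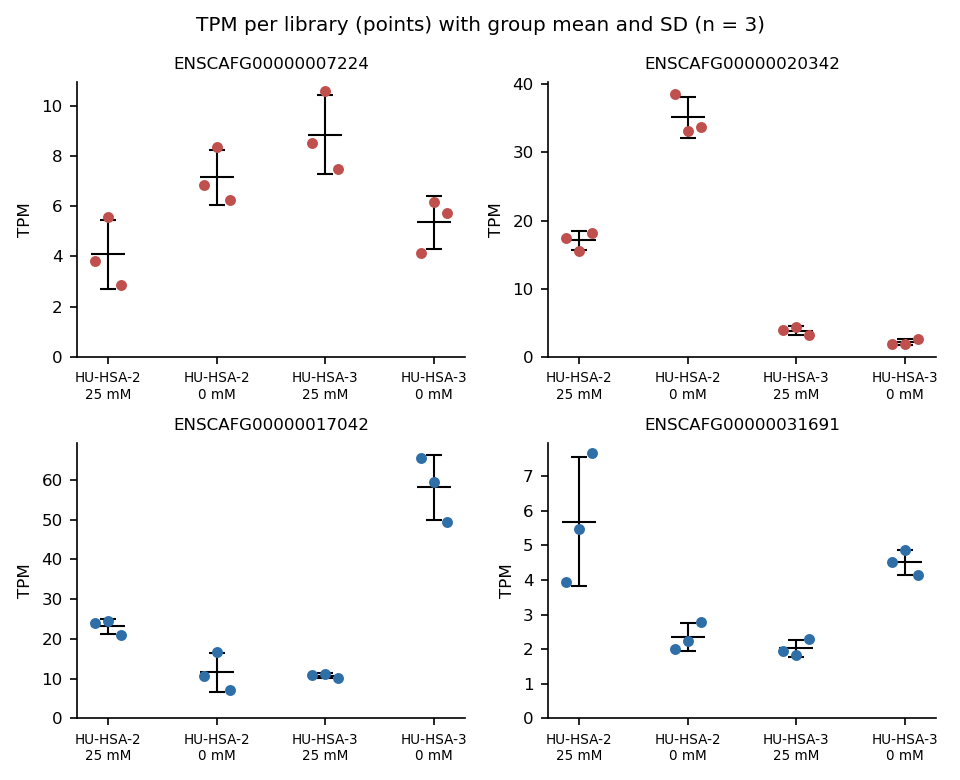
TPM (vertical axes, starting at 0) of the 4 identifiers with the largest smaller absolute D, 2 of each direction, in the 3 libraries of each group (points), with the group mean and SD (n = 3). In each panel the 25 and 0 mM points of a line do not overlap, and the step between them goes one way in HU-HSA-2 and the other way in HU-HSA-3.

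Among the 50 identifiers that were higher in HU-HSA-2 and lower in HU-HSA-3, the movement in HU-HSA-3 was smaller than among the 31. Their median D was 0.42 for HU-HSA-2 and -0.38 for HU-HSA-3. The larger absolute D was in HU-HSA-2 for 26 of 50, against 44.3% of expressed identifiers. The rise in HU-HSA-2 ran from 0.25 to 0.99987 and the fall in HU-HSA-3 from -0.25 to -1.52. An absolute D over 1 in HU-HSA-3 was found in 1 of the 50, against 0.87% of expressed identifiers. A mean of 10 TPM or more in both lines was reached by 23 of the 50, or 46%.

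ENSCAFG00000007224 led this set by its smaller absolute D. In HU-HSA-2 it had 3.83, 5.58 and 2.87 TPM at 25 mM and 6.84, 8.35 and 6.24 TPM at 0 mM. In HU-HSA-3 it had 8.5, 10.6 and 7.47 TPM at 25 mM and 4.15, 6.18 and 5.73 TPM at 0 mM. The glucose groups were separate in both lines, but by gaps smaller than the range within a group, and in HU-HSA-2 5.58 TPM lay close to 6.24 TPM. D was 0.68 for HU-HSA-2 and -0.63 for HU-HSA-3. The fitted log2 fold changes were 0.81 ± 0.21 (SE) and -0.63 ± 0.18 (SE), from 34 to 123 estimated counts per library. The fall in HU-HSA-3 did not pass the threshold of edgeR's quasi-likelihood test (adjusted p = 0.0683). Over the alternatives its adjusted p ran from 0.0372, in edgeR without HU-HSA-3 0 mM library 1, to 0.239, in edgeR without 25 mM library 2.

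ENSCAFG00000020342 differed between the lines at either glucose level as well as in its response. In HU-HSA-2 it had 17.5, 15.5 and 18.2 TPM at 25 mM and 38.6, 33.1 and 33.8 TPM at 0 mM. In HU-HSA-3 it had 3.91, 4.41 and 3.14 TPM at 25 mM and 1.82, 1.94 and 2.63 TPM at 0 mM. Every HU-HSA-2 library was above every HU-HSA-3 library, and the distance grew without glucose. D was 0.99987 for HU-HSA-2 and -0.62 for HU-HSA-3. The fitted log2 fold change in HU-HSA-2 was 1.03 ± 0.11 (SE). In HU-HSA-3 it was -0.74 ± 0.22 (SE), from 21 to 48 estimated counts per library, and did not pass the same test (adjusted p = 0.0849 in edgeR).

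The identifiers nearest to the limits had values close to those just left out. The smallest absolute D among the 81 was 0.25174 in HU-HSA-2, in an identifier with D of -0.36 in HU-HSA-3. An identifier with 0.247895 for HU-HSA-2 and -0.57 for HU-HSA-3 was left out. The mean closest to the minimum level was 2.03 TPM in HU-HSA-2, in an identifier with a mean of 32.7 TPM in HU-HSA-3. At a limit of 0.5 in place of 0.25, 15 identifiers were left, 7 of the 50 and 8 of the 31.

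**Figure D4:**
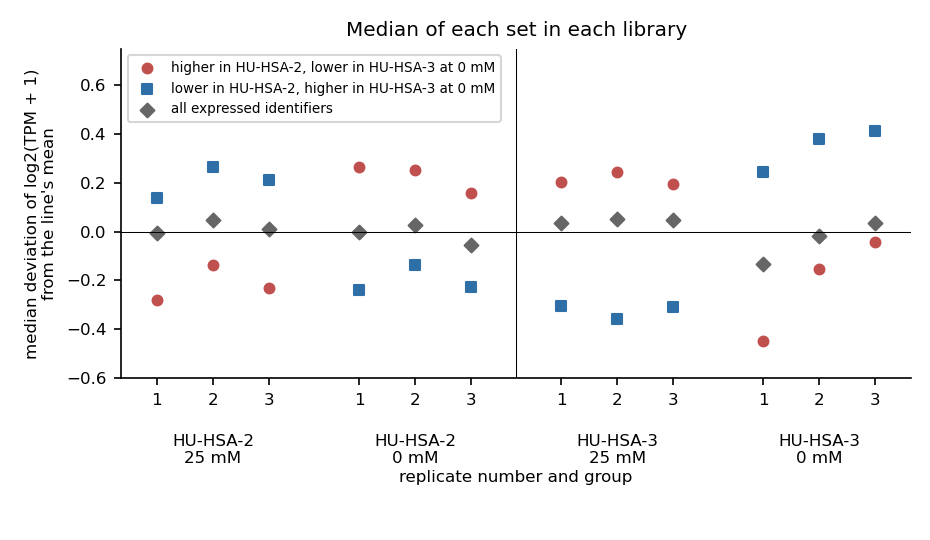
Median deviation of log2(TPM + 1) from the mean of the line's 6 libraries (vertical axis) in each library (horizontal axis, by group and replicate number) for the 50 identifiers (red circles), the 31 identifiers (blue squares) and all 9916 expressed identifiers (grey diamonds). In HU-HSA-3 at 0 mM the red circles spread from -0.45 in library 1 to -0.04 in library 3, and the grey diamond of library 1 is the lowest of all 12.

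Libraries of the same group differed in how far each set had moved. In HU-HSA-3 at 0 mM the 50 identifiers had median deviations of -0.45, -0.15 and -0.04 in libraries 1, 2 and 3, against 0.20 to 0.24 in the 25 mM libraries. Library 1 was the farthest from the 25 mM libraries for 44 of the 50, and library 3 the nearest for 37. Without library 1 the median D of the 50 in HU-HSA-3 was -0.30, and 31 still had an absolute D of at least 0.25. All kept their sign, which the required absence of overlap fixed in advance. The 31 identifiers had median deviations of 0.24, 0.38 and 0.41 in the same libraries, and library 1 was the nearest to the 25 mM libraries for 17 of them. Without it their median D in HU-HSA-3 was 0.71, and 30 of 31 kept an absolute D of at least 0.25. The part of library 1 in the fall of single identifiers was not tested further.

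In HU-HSA-2 no library stood apart to this degree. The 50 identifiers had median deviations of 0.26, 0.25 and 0.16 in the 0 mM libraries and of -0.28, -0.14 and -0.23 in the 25 mM libraries. The 31 identifiers had -0.24, -0.14 and -0.23 at 0 mM and 0.14, 0.26 and 0.21 at 25 mM. Leaving out any of the 6 libraries left at least 42 of the 50 and 26 of the 31 with an absolute D of at least 0.25. The sign of D could not change, since the choice required glucose groups that did not overlap.

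Fits on estimated counts, which scale the libraries by TMM in place of TPM, gave every one of the 81 the sign of D in both lines. The calls below are edgeR quasi-likelihood tests at an adjusted p under 0.05, and they use the contrasts that chose the identifiers. In HU-HSA-2, 44 of the 50 were called higher and 21 of the 31 lower, where 13.2% of all tested genes were called, 7.45% as higher and 5.7% as lower at 0 mM. In HU-HSA-3, 12 of the 50 were called lower and 22 of the 31 higher, where 5.65% of all tested genes were called, 3.61% as higher and 2.04% as lower. Both lines gave a call for 12 of the 50 and 17 of the 31, so 29 of the 81 were called in opposite directions by this test. The fits of the 2 lines shared 10858 genes, and 0.46% of these were called in that way. Another 36 of the 81 were called in HU-HSA-2 alone, 5 in HU-HSA-3 alone and 11 in neither, where the shares over all 10858 genes were 11.7%, 3.67% and 82.7%.

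For most of the 50 identifiers the fall in HU-HSA-3 did not pass this test. Their median fitted log2 fold change was 0.50 for HU-HSA-2 and -0.37 for HU-HSA-3, beside medians of -0.01 and 0.00 over all tested genes. Without HU-HSA-3 0 mM library 1, 50 of the 81 were called in HU-HSA-3, compared with 34 with all libraries, while over all genes the calls went from 626 to 2027. For the 31 identifiers the median was -0.37 for HU-HSA-2 and 0.82 for HU-HSA-3. The fitted difference of responses, HU-HSA-3 minus HU-HSA-2, was called in 43 of the 50, all negative, and in 29 of the 31, all positive. Over all tested genes that difference was called in 4.73%, in 2.43% as a higher and in 2.31% as a lower response in HU-HSA-3.

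The mean level of a gene over both glucose groups is a contrast that the choice did not use apart from the minimum level, and it was tested between the lines. In this contrast 74 of the 81 passed an adjusted p under 0.05 in edgeR's quasi-likelihood test, 31 with higher and 43 with lower levels in HU-HSA-3. Over all tested genes 81.5% passed, 39.8% as higher and 41.7% as lower in HU-HSA-3, so a difference in level between the lines was common everywhere. Of the 50, 23 were higher and 25 lower in HU-HSA-3. Of the 31, 8 were higher and 18 lower. The line difference was over 1 on the log2 scale in 27 of the 50 and 8 of the 31, beside 28.7% of all tested genes that passed with such a size. The fitted line differences of the 50 ran from -2.85 to 4.32 and those of the 31 from -2.83 to 1.02.

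Among the 4 identifiers given in full, the line contrast was clearest for ENSCAFG00000020342, at -2.85 ± 0.12 (SE, adjusted p = 4.1e-13 by edgeR's quasi-likelihood test). At 25 mM alone it was -1.97 and at 0 mM alone -3.75. Values at a single glucose level contain the levels that chose the identifiers, so they are given here without a test. For ENSCAFG00000017042 the mean contrast of 0.68 ± 0.17 (SE, adjusted p = 0.00187 in edgeR) joined opposite values, -1.11 at 25 mM and 2.44 at 0 mM. For ENSCAFG00000007224 it was 0.53 ± 0.15 (SE, adjusted p = 0.0028 in edgeR), with 1.24 at 25 mM and -0.20 at 0 mM. In limma on log2(TPM + 1) it was 0.30 and lost the call (adjusted p = 0.064). For ENSCAFG00000031691 the mean contrast of 0.22 ± 0.23 (SE, adjusted p = 0.393 in edgeR) again joined opposite values, -0.67 at 25 mM and 1.08 at 0 mM, and its sign turned to -0.19 in limma on log2(TPM + 1).

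**Figure D5:**
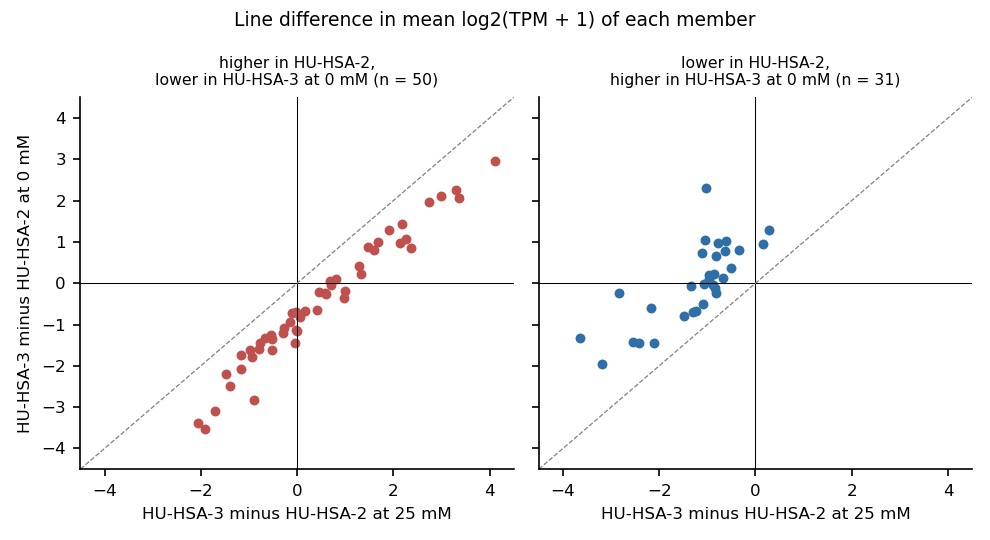
Difference in mean log2(TPM + 1) between HU-HSA-3 and HU-HSA-2 at 25 mM (horizontal axes) and at 0 mM (vertical axes) for the 50 identifiers (left) and the 31 identifiers (right); the dashed line marks equal differences. All points lie below the line on the left and above it on the right, as the choice requires, and 29 of the 31 on the right lie at negative values on the horizontal axis.

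The order of the lines changed with glucose in 22 of the 81. At 25 mM, 29 of the 31 were higher in HU-HSA-2, and at 0 mM 16 of them still were, so 13 changed order. The 2 lines were closer to each other at 0 mM than at 25 mM in 24 of the 31. Of the 50, 24 were higher in HU-HSA-2 at 25 mM and 33 at 0 mM, so 9 changed order. The lines were closer at 0 mM in 23 of the 50 and farther apart in 27. Among all expressed identifiers 55.3% were higher in HU-HSA-2 at 25 mM and 58.6% at 0 mM. The order changed in 11.97% of all expressed identifiers. In 4.35% it changed to higher in HU-HSA-3 at 0 mM, as in the 13. In 7.62% it changed to higher in HU-HSA-2 at 0 mM, as in the 9. The lines were closer at 0 mM in 51.9% of all expressed identifiers. These counts contain the values that chose the identifiers, since opposite responses move the line difference, and they carry no test.

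The identifiers differed in effective transcript length, which the rule did not name but which enters every TPM value it used. Taken as estimated counts per TPM and set relative to the median expressed identifier, the median length was 1.32 for the 50 and 0.95 for the 31. The sets of equal direction had medians of 1.15 for those lower and 0.74 for those higher at 0 mM in both lines. In HU-HSA-3 the median D of expressed identifiers went from -0.03 in the shortest of 5 length classes to -0.13 in the longest, and in HU-HSA-2 it lay between -0.02 and -0.04 in every class. From shortest to longest, the classes held 3, 12, 9, 11 and 15 of the 50. For the 31 these counts were 8, 5, 7, 6 and 5. Length thus moved with the direction in HU-HSA-3, and its part in the composition of the sets was not tested.

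The 7 stress-response genes with qPCR primers give a named setting for these movements, although they were chosen by the study and 2 of them met the numerical rule. ASNS, which makes asparagine from aspartate and glutamine, had 131, 134 and 130 TPM at 25 mM and 81.6, 78.4 and 82.5 TPM at 0 mM in HU-HSA-2. Its levels in HU-HSA-3 were 90.5, 91.6 and 91.7 TPM at 25 mM and 161, 163 and 161 TPM at 0 mM. The lines thus changed order without overlap, with D of -0.70 and 0.82, as ENSCAFG00000017042 did. CHAC1, which degrades glutathione, had group means of 43.9 ± 3.5 and 31.9 ± 5.0 TPM (SD, n = 3) in HU-HSA-2 at 25 and 0 mM. In HU-HSA-3 its means were 4.40 ± 0.63 and 87.1 ± 5.9 TPM (SD, n = 3), and D was -0.45 and 4.03.

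The other stress-response genes met the criteria in HU-HSA-3 and mostly had small D in HU-HSA-2. ATF4 had D of -0.24 and 1.03, SESN2, a stress-induced inhibitor of mTORC1 signaling, -0.22 and 2.25, and MTHFD2, a mitochondrial folate enzyme, -0.11 and 0.82, the HU-HSA-2 value first. DDIT3, which encodes the pro-apoptotic factor CHOP, was higher at 0 mM in both lines, with D of 0.42 and 2.76. SLC7A11, the cystine transporter subunit, had D of 0.26 and 2.92 with overlapping libraries in HU-HSA-2. All 7 met the criteria as higher in HU-HSA-3, and 3 of 7 met them in HU-HSA-2, ASNS and CHAC1 as lower and DDIT3 as higher. Beside them stand 4.62% of expressed identifiers as higher in HU-HSA-3, and 6.33% as higher and 7.95% as lower in HU-HSA-2.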

How the data were processed

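Cells of 2 canine HSA lines were sequenced after 48 h at 0 or 25 mM glucose (3 libraries per group). Per the labels and the study's methods, the authors made directional polyA libraries, aligned reads to CanFam3.1 with STAR and quantified them with RSEM. The authors deposited estimated counts and TPM per Ensembl gene. The versions of STAR and RSEM and the annotation are not given in the sources used here. The edgeR version in the submitters' processing notes is 3.42.0.

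D, the selection rule and its pseudocount of 1 were applied to the deposited TPM. Estimated counts were rounded, filtered with filterByExpr, scaled by TMM and fitted with edgeR 4.0.16 (glmQLFit, glmQLFTest, R 4.3.3), each line on its own for the responses and all 12 libraries together for the difference of responses and the line contrast. P-values were Benjamini-Hochberg adjusted over all tested genes. Alternatives used DESeq2 1.42.0 and limma 3.58.1 (with an intensity trend). The fits were tested on simulated data. Library totals were 10406166 to 13405159. No 2 libraries of a group were identical, and the counts of every pair differed by more than sampling noise. The chi-square per degree of freedom was 18.3 and 21.2 for the pairs with HU-HSA-3 0 mM library 1. It was 2.5 to 9.1 for the other pairs.

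The identifiers and gene lists were chosen with earlier results of these data known. The text names the 2 identifiers of each direction with the largest smaller absolute D. Genes named by symbol are those whose identifiers the study lists with its qPCR primers; values are given for 3 endothelial markers and 7 stress-response genes of the 19, and the others are not reported here. Lists of pathway genes and of markers of other cell types were not run, since their other symbols could not be matched to identifiers, and sequences and coordinates were not used here.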

Additional observations from a re-analysis of the deposited data

Results flagged for a closer look

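The fitted difference of responses, HU-HSA-3 minus HU-HSA-2, was past the threshold of edgeR's quasi-likelihood test in 72 of the 81 identifiers, against 4.73% of all tested genes. The identifiers were chosen on these contrasts, so the test repeats the choice. The difference was 3.54 on the log2 scale for ENSCAFG00000017042, 1.75 for ENSCAFG00000031691, -1.45 for ENSCAFG00000007224 and -1.77 for ENSCAFG00000020342. For ENSCAFG00000031691 the call (adjusted p = 0.0335 in edgeR) was lost when any single library other than HU-HSA-3 0 mM library 2 was left out, and over the alternatives the adjusted p ran from 0.00116 to 0.0947. The other 3 kept the call under every alternative run, with adjusted p of at most 0.0272.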

How the results depend on the processing

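The rule gave 81 identifiers, 15 with an absolute D of at least 0.5, 83 to 112 with 1 library left out and 47 (29 of them shared) when edgeR had to call both lines with opposite signs. With the libraries centred it gave 87, with TMM-normalized CPM 98 and, centred and without HU-HSA-3 0 mM library 1, 89 split 40 to 49 (57 shared); both centred settings were added after seeing the data. Of the 81, 65 were called in HU-HSA-2, 43 by limma on log2(TPM + 1), 42 on log2(TPM + 0.1) and 48 to 63 with 1 library left out. In HU-HSA-3, 34 were called, and 21 to 50 with 1 library left out, the lowest without 25 mM library 3. For the difference these were 72 and 63 to 75, and between the lines 74 and 73 to 75. Over all genes, calls in HU-HSA-2 went from 1583 to 870 and 845 in the same limma fits and to 907 to 1582 with 1 library left out, 920 without 25 mM library 2 and 907 without library 3. In HU-HSA-3 they went from 626 to 384 and 366 in limma, to 1153 with all 12 libraries in one fit, and to 231 to 2027 with 1 library left out: 2027 and 319 without 0 mM libraries 1 and 2, and 236, 256 and 231 without 25 mM libraries 1, 2 and 3. Calls of the difference went from 579 to 370 by limma on log2(TPM + 0.1) and to 386 to 852 with 1 library left out, and between the lines from 9967 to 9821 to 10275. The causes were not tested.

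Line contrasts turned sign for ENSCAFG00000017042 (-1.11 at 25 mM alone), ENSCAFG00000031691 (-0.19 and -0.24 in limma, -0.67 at 25 mM alone) and ENSCAFG00000007224 (-0.20 at 0 mM alone). Of 256 alternative values for the 4 identifiers, 220 kept direction and side of the threshold, 22 lost the call, 9 gained it and 5 turned.

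Replicate numbers did not pair the libraries (correlations of same-numbered deviations from -0.05 to 0.13). With a replicate block, the calls among the 81 were 63 for HU-HSA-2, 39 for HU-HSA-3, 69 for the difference and 74 between the lines. ENSCAFG00000007224 then passed in HU-HSA-3 (adjusted p = 0.0442) and ENSCAFG00000031691 no longer did for the difference (adjusted p = 0.0635). The precision that depth sets for single identifiers was not tested, and 27 of the 50 had a mean under 10 TPM in at least 1 line.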
